A study of Homo sapiens with 24 samples.

Results

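The KDM3 and KDM4 histone demethylases were taken from the count files by symbol, and all 7 symbols sought (KDM3A, KDM3B, JMJD1C, KDM4A, KDM4B, KDM4C and KDM4D) were found among the 23106 symbols listed for each library. RNA-seq libraries were made in triplicate from 4 cancer cell lines kept for 16 h in normoxia (21% oxygen) or in hypoxia (0.5%), which gives 8 groups and 24 libraries. The lines were A549 (lung) and PC3 (prostate), both grown in F12K medium, HCT-116 (colorectal), grown in McCoy's 5a, and T47D (breast), grown in DMEM, so that line and medium cannot be told apart except between A549 and PC3. Each line stands for 1 tumor of its tissue, and the labels do not say whether the replicates were separate cultures, so p values measure the spread between these libraries, which may be technical.

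These enzymes belong to the Jumonji family of oxygenases, which use oxygen, iron and 2-oxoglutarate to remove methyl groups from histone lysines. KDM3A and KDM3B remove methyl groups from lysine 9 of histone H3 (H3K9), a mark of silent chromatin, and JMJD1C is their largest relative. KDM4A, KDM4B and KDM4C act on the more heavily methylated forms of H3K9 and on H3K36, whereas KDM4D acts on H3K9 and lacks the reader domains of the other members. Cells in low oxygen stabilize HIF, a transcription factor that binds DNA at the core sequences ACGTG and GCGTG, and KDM3A, KDM4B and KDM4C are known HIF targets. These 3 genes are also on the study's list of 48 conserved HIF targets, which was chosen in part on these same libraries, so their rise here is not independent evidence of its direction.

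Library totals ranged from 22698584 to 62850747 counts (median 56109796), and 3 counts, taken as the floor of a library, amounted to 0.0477 to 0.132 CPM (counts scaled to library size). Replicates correlated with r of 0.978 to 0.995 across genes, and the third hypoxic T47D library stood farthest from its group (mean r = 0.978). HIF targets used as a check of the labels (CA9, EGLN3, NDRG1, ADM, VEGFA and BNIP3) rose in each line, 6 of 6. Of all genes tested, 6.55% to 23.3% rose, depending on the line. NDRG1 and ADM are on the study's list of conserved targets, chosen in part on these libraries, so their rise is not an independent check. The paper also names EGLN3 and BNIP3 among genes bound by HIF and induced in most of its lines. The breast markers ESR1, PGR, GATA3 and TFF1 were above the floor in every T47D library, 4 of 4, whereas 0 of 4 lung markers in A549, 1 of 4 prostate markers in PC3 and 1 of 4 colorectal markers in HCT-116 were. Markers of a tissue were not always highest in its line, since 2 of 4 lung markers were above the floor in every HCT-116 library, and the prostate markers summed to 51.4 to 97.3 CPM in A549 and 50.6 to 86.3 CPM in T47D but to 5.31 to 6.76 CPM in PC3. Epithelial markers were above the floor throughout (3 of 3), and summed leukocyte and endothelial markers reached at most 3.85 CPM and 2.77 CPM. The leukocyte maximum was that of CD14 in A549 cells, where PTPRC and CD3E had no counts. Summed fibroblast markers (COL1A1, COL1A2, DCN and LUM) ranged from 10.8 to 57.2 CPM. This sum was almost all COL1A1 (10.4 to 56.7 CPM), while COL1A2, DCN and LUM reached at most 0.405, 0.134 and 1.01 CPM. The part of these markers in the results was not tested.

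The promoters of KDM4B and JMJD1C are shown because the first gene rose in each line and the second in none. They are the 250 bases before the RefSeq start (sequence table of GRCh38.p14). Each was found at a single place on the chromosome of its gene in GRCh37, and other chromosomes were not searched. The places are chr19:4968874-4969123 on the plus strand for KDM4B and chr10:65225738-65225987 on the minus strand for JMJD1C. Neither window shares a base with an annotated exon. The KDM4B window lies before the span of its gene, whereas that of JMJD1C lies inside it (chr10:64926981-65281610). Starts of JMJD1C transcripts annotated farther upstream were not examined. Capitals mark ACGTG or GCGTG read on either strand, and CACGTG holds ACGTG on both strands, so it was counted as 1 stretch.
KDM4B: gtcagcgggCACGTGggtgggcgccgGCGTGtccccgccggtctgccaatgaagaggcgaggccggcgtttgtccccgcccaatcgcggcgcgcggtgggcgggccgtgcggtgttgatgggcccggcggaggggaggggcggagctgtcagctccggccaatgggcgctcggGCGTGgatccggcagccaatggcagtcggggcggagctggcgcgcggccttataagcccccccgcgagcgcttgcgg
JMJD1C: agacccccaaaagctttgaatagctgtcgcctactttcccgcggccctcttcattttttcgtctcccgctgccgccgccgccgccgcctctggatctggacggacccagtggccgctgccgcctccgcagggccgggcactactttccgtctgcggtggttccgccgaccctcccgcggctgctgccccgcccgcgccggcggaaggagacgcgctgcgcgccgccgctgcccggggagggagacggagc

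The KDM4B window held 3 separate stretches, which start 241, 224 and 77 bases before the RefSeq start. The KDM4C window also held 3, starting 96, 63 and 31 bases before it, while KDM3A held 1 (at 116 bases) and KDM4A held 1 (at 79 bases). KDM3B, JMJD1C and KDM4D had no match in this window. Of the 35116 promoters in the table, 43.21% held at least 1 stretch and 5.556% at least 3, with ACGTG in 18.51% and GCGTG in 32.22%. The matched stretches of the other 3 genes are printed with 10 bases on each side. The KDM3A and KDM4C windows share 173 and 250 bases with annotated exons of longer transcripts, and that of KDM4A shares none.
KDM3A: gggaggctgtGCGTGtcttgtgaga
KDM4A: tggctgcggcGCGTGctcattggct
KDM4C at 96: caaagcaagaGCGTGccgggcacct
KDM4C at 63: tttgtaagccCACGTGactcaccaag
KDM4C at 31: ccccagcggtCACGTGacggcgcgcg

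These matches are a description of letters in a window, and binding was not measured in the libraries analyzed here. The paper measured HIF binding separately, by ChIP-seq in the same lines. It reports that the genes of its list, which include KDM3A, KDM4B and KDM4C, were bound by both HIF isoforms. Where that binding lies relative to these windows was not examined.

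Hypoxia raised KDM3A, KDM4B and KDM4C in all 4 lines, KDM3B in 3 lines, KDM4A in 2 and KDM4D in 1, while JMJD1C was called in none and no member was called lower in any line. A gene was called at an adjusted p under 0.05 in edgeR's quasi-likelihood test, fitted for each line, with a fold change over 1.2. All 7 members passed the filter on low counts in each line. Where groups are said not to overlap, this is a description only, since the share of all genes whose groups do not overlap was not computed. Groups of an uncalled gene can separate as well, as those of KDM4A did in T47D cells. In A549 cells, 4 of 7 members were called higher, against 17.6% of all genes tested (17.8% were called lower). In HCT-116 cells, 5 of 7 rose, against 23.3% of all genes (27% lower). In PC3 cells, 5 of 7 rose, against 16.6% (15.7% lower), and in T47D cells 4 of 7 rose, against 6.55% (6.69% lower). The median log2 fold change of the 7 members was 0.48, 1.16, 0.41 and 0.82 in A549, HCT-116, PC3 and T47D, against -0.03 to -0.01 for all genes tested. These counts and medians include KDM3A, KDM4B and KDM4C, which are on the study's list, chosen in part on a rise in these libraries. The comparison with all genes is therefore not independent evidence of a rise of the family. With libraries scaled to total counts the median of all genes was -0.13 in A549 and -0.12 in T47D cells, and the share of all calls that were higher was 33.9% in place of 49.8% and 32.1% in place of 49.5%. Levels are CPM scaled by TMM over the 24 libraries, and in bulk RNA a change in the share of cells that express a gene cannot be told apart from a change in RNA per cell.

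**Figure D1:**
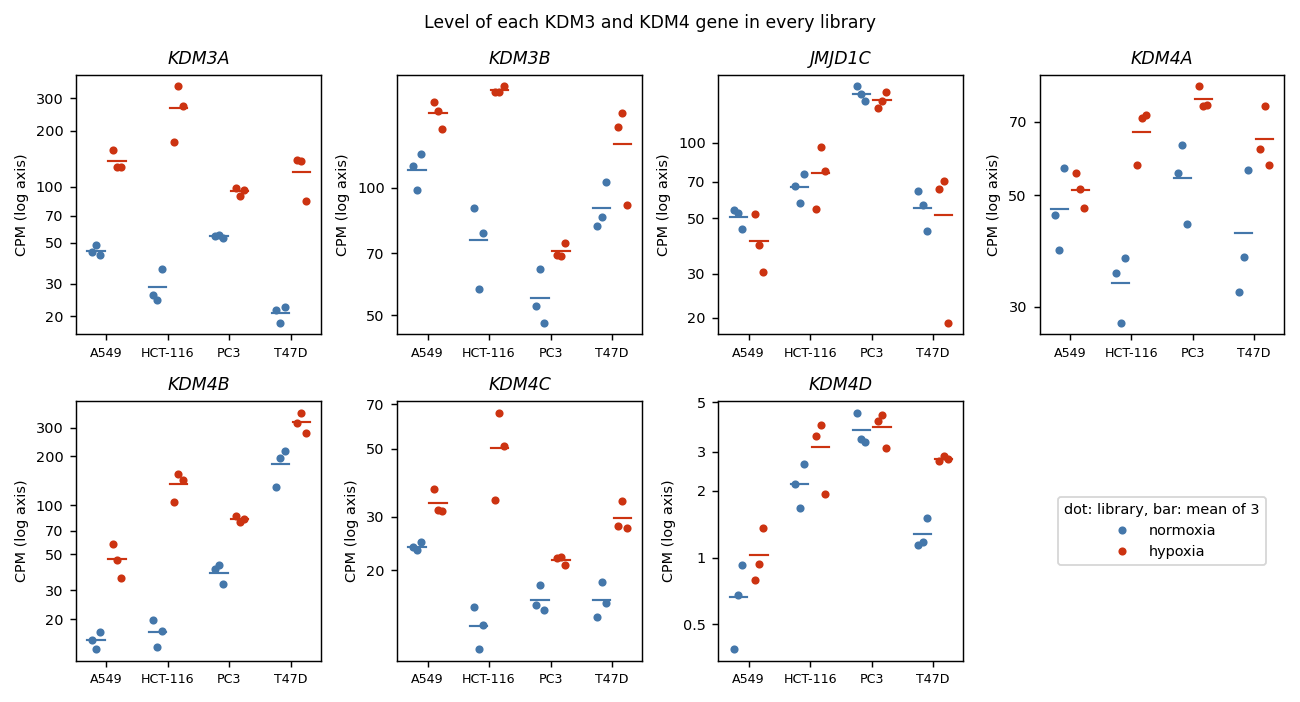
Level of each gene in every library, in CPM on a log axis, by cell line, with normoxia in blue and hypoxia in red; dots are single libraries and bars the mean of 3. The 2 groups separate in every line for KDM3A, KDM4B and KDM4C and overlap in every line for JMJD1C. How many of all genes separate was not computed.

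KDM3A, which demethylates H3K9, lies on GRCh37 at chr2:86667770-86719839 on the plus strand. In HCT-116 cells its level was 26.0, 24.4 and 36.2 CPM in the 3 normoxic libraries and 175, 348 and 272 CPM in the 3 hypoxic libraries. The lowest hypoxic library was therefore far above the highest normoxic library, although the hypoxic libraries differed among themselves. The log2 fold change was 3.18 (SE 0.27, edgeR adjusted p = 1.53e-05), which ranked 29 of 13614 genes.

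In T47D cells KDM3A was at 21.6, 18.5 and 22.4 CPM in normoxia and at 140, 138 and 83.7 CPM in hypoxia. The third hypoxic library, which stood farthest from its group, was the lowest of its group and still exceeded all normoxic libraries. The log2 fold change was 2.50 (SE 0.24, edgeR adjusted p = 3.82e-05). In A549 cells the normoxic libraries were at 44.3, 48.3 and 43.1 CPM and the hypoxic libraries at 158, 129 and 128 CPM, with a log2 fold change of 1.62 (SE 0.12, edgeR adjusted p = 3.21e-06). PC3 cells had the highest normoxic level, at 54.3, 54.7 and 52.9 CPM, and the smallest rise, to 98.9, 89.3 and 96.5 CPM, a log2 fold change of 0.79 (SE 0.09, edgeR adjusted p = 7.07e-04). The order of the lines in hypoxia thus differed from that in normoxia, with PC3 first in normoxia and last in hypoxia by mean level. The 4 calls for KDM3A held under each of 17 alternatives, with log2 fold changes of 2.96 to 3.46 in HCT-116, 2.39 to 2.72 in T47D, 1.48 to 1.68 in A549 and 0.67 to 0.84 in PC3.

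KDM3B (chr5:137688374-137772717, plus strand) has the same enzymatic role as KDM3A, and rose by less. In HCT-116 cells it was at 89.4, 57.7 and 78.3 CPM in normoxia and at 168, 168 and 174 CPM in hypoxia, where the replicates lay close together. The log2 fold change was 1.16 (SE 0.20, edgeR adjusted p = 5.50e-04). In A549 cells it rose from 113, 98.8 and 120 CPM to 160, 152 and 138 CPM (log2 fold change 0.45, SE 0.11, edgeR adjusted p = 0.0103). In PC3 cells it rose from 52.6, 64.3 and 48.0 CPM to 69.3, 69.0 and 74.0 CPM (log2 fold change 0.34, SE 0.11, edgeR adjusted p = 0.0373). Neither pair of groups overlapped, but both of these smaller changes were near the threshold. The A549 call was lost without normoxia replicate 2 (log2 fold change 0.37, edgeR adjusted p = 0.0599), and the PC3 call was lost without any of 5 of the 6 libraries, with adjusted p of 0.0828, 0.0938 and 0.116 without hypoxia replicate 1, 2 or 3 and of 0.122 and 0.0589 without normoxia replicate 1 or 3. The PC3 call was also lost with scaling to total counts (0.0665) and in one fit of all 24 libraries (0.166), as was the A549 call in the latter (0.0775). Correcting for GC content and transcript length lowered the log2 fold change to 0.67 in HCT-116 cells, which remained called, and to 0.21 in A549 and 0.12 in PC3 cells (edgeR adjusted p = 0.0977 and 0.299).

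In T47D cells KDM3B was at 81.0, 85.1 and 103 CPM in normoxia and at 139, 150 and 91.1 CPM in hypoxia, so that the third hypoxic library fell among the normoxic ones. The log2 fold change of 0.48 did not pass the test (SE 0.22, edgeR adjusted p = 0.166). Without that library it was 0.68 (SE 0.18, edgeR adjusted p = 0.0200), and in one fit of all 24 libraries it was 0.56 (edgeR adjusted p = 0.0227).

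JMJD1C (chr10:64926981-65281610, minus strand) was called in no line, and its groups overlapped in each. In A549 cells it was at 54.0, 52.6 and 45.4 CPM in normoxia and at 51.9, 39.2 and 30.6 CPM in hypoxia (log2 fold change -0.31, edgeR adjusted p = 0.168). In PC3 cells, where it was most abundant, the values were 168, 156 and 147 CPM in normoxia and 138, 146 and 159 CPM in hypoxia (log2 fold change -0.11, edgeR adjusted p = 0.403). In HCT-116 cells they were 67.1, 57.3 and 75.4 CPM and 54.2, 96.1 and 77.5 CPM (log2 fold change 0.17, edgeR adjusted p = 0.541). In T47D cells the hypoxic libraries spread widely, with 63.9, 56.4 and 44.5 CPM in normoxia and 65.2, 70.7 and 19.2 CPM in hypoxia, where the low value again came from the third library. The log2 fold change there was -0.12 (edgeR adjusted p = 0.850), and without that library it was 0.28 (edgeR adjusted p = 0.325). In A549 cells, JMJD1C was called lower when hypoxia replicate 1 was left out (log2 fold change -0.52, edgeR adjusted p = 0.0180). Of its exon bases in GENCODE 44, 4.33% are shared with the antisense gene JMJD1C-AS1. Since the strand setting of the counting is not stated, reads of the 2 genes cannot be told apart there.

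KDM4B (chr19:4969124-5153609, plus strand), which demethylates H3K9 and H3K36 and is known as a partner and target of the estrogen receptor in breast cancer cells, gave the largest changes of the KDM4 genes in A549, HCT-116 and PC3 cells. In HCT-116 cells it was at 19.7, 13.4 and 17 CPM in normoxia and at 105, 156 and 143 CPM in hypoxia (log2 fold change 2.99, SE 0.23, edgeR adjusted p = 6.94e-06). In A549 cells it rose from 14.8, 13.1 and 16.7 CPM to 57.7, 46.5 and 35.9 CPM (log2 fold change 1.66, SE 0.17, edgeR adjusted p = 4.02e-05). Both lines had low normoxic levels that lay close together, and their hypoxic libraries did not overlap. In PC3 cells KDM4B rose from 40.4, 42.9 and 32.7 CPM to 86.2, 79.5 and 81.9 CPM (log2 fold change 1.07, SE 0.11, edgeR adjusted p = 4.79e-04).

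T47D cells had far more KDM4B in normoxia, at 130, 194 and 215 CPM, a range that of the other groups only hypoxic HCT-116 libraries reached. In hypoxia the T47D libraries were at 319, 370 and 277 CPM, the highest values of the gene in any library, although the log2 fold change was the smallest of the 4 lines (0.82, SE 0.23, edgeR adjusted p = 0.0376). This call was lost without hypoxia replicate 1 or 2 (edgeR adjusted p = 0.101 and 0.131), without normoxia replicate 1 or 2 (0.205 and 0.0956), and with scaling to total counts (0.0599). Corrected for GC content and transcript length, the log2 fold change was 0.47 in T47D cells (edgeR adjusted p = 0.0972), and 0.71 in PC3, 1.27 in A549 and 2.24 in HCT-116 cells, which remained called.

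KDM4C, of the same specificity (chr9:6720863-7175648, plus strand), rose in each line without overlap of the groups. In HCT-116 cells it went from 15.2, 11.1 and 13.2 CPM to 34.0, 65.7 and 51.1 CPM (log2 fold change 1.91, SE 0.24, edgeR adjusted p = 1.17e-04). In T47D cells it went from 14, 18.4 and 15.7 CPM to 27.9, 33.6 and 27.5 CPM (log2 fold change 0.86, SE 0.20, edgeR adjusted p = 0.0173). In A549 cells the rise was from 23.8, 23.3 and 24.7 CPM to 36.9, 31.5 and 31.2 CPM (log2 fold change 0.48, SE 0.11, edgeR adjusted p = 0.00679). PC3 cells gave the smallest change, from 15.4, 17.9 and 14.9 CPM to 22.0, 22.1 and 20.9 CPM (log2 fold change 0.41, SE 0.11, edgeR adjusted p = 0.0191). The PC3 call was lost without hypoxia replicate 1 or 2 or normoxia replicate 1 (edgeR adjusted p = 0.0581, 0.0741 and 0.0709), and the T47D call without hypoxia replicate 2 or normoxia replicate 1 (0.0689 and 0.127). In one fit of all 24 libraries the calls in A549 and PC3 were lost (edgeR adjusted p = 0.0686 and 0.120).

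KDM4A, also of that specificity (chr1:44115820-44171189, plus strand), rose in 2 lines. In HCT-116 cells it went from 35.0, 27.9 and 37.5 CPM to 57.4, 71.3 and 72.0 CPM (log2 fold change 0.98, SE 0.19, edgeR adjusted p = 0.00105), and in PC3 cells from 55.3, 63 and 43.8 CPM to 82.2, 75.0 and 75.5 CPM (log2 fold change 0.50, SE 0.12, edgeR adjusted p = 0.0144). The groups did not overlap in either line. Without hypoxia replicate 1 of PC3 the adjusted p was 0.0574, and in one fit of all 24 libraries it was 0.0754 in PC3 cells. In A549 cells the groups overlapped, with 45.6, 38.8 and 56.7 CPM in normoxia and 55.2, 51.3 and 47 CPM in hypoxia (log2 fold change 0.13, edgeR adjusted p = 0.502).

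In T47D cells KDM4A was at 32.1, 37.6 and 56.2 CPM in normoxia and at 61.9, 75.0 and 57.4 CPM in hypoxia, where the highest normoxic and the lowest hypoxic library nearly met. The log2 fold change of 0.61 missed the threshold (SE 0.22, edgeR adjusted p = 0.0833), and passed it without hypoxia replicate 3 (0.70, edgeR adjusted p = 0.0405) or normoxia replicate 3 (0.83, edgeR adjusted p = 0.0253) and in one fit of all 24 libraries (0.68, edgeR adjusted p = 0.0115). KDM4A counts carry an uncertainty, since 40.24% of its exon bases are shared with a gene annotated on the same strand (ENSG00000284989) and 9.124% with the antisense gene KDM4A-AS1.

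KDM4D (chr11:94706873-94732683, plus strand) was expressed at low levels, with 19 to 222 counts a library. In T47D cells it went from 1.14, 1.17 and 1.51 CPM to 2.73, 2.87 and 2.77 CPM (log2 fold change 1.11, SE 0.32, edgeR adjusted p = 0.0406). The hypoxic libraries were nearly alike and all above the normoxic ones. This call was lost without hypoxia replicate 1 or 2 (edgeR adjusted p = 0.118 and 0.131), without normoxia replicate 1 or 2 (0.173 and 0.125), and with scaling to total counts (0.0618). The log2 fold changes of 0.62 in A549, 0.54 in HCT-116 and 0.03 in PC3 cells did not pass the test (edgeR adjusted p = 0.258, 0.193 and 0.918), and the groups overlapped in each of these lines.

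**Figure D2:**
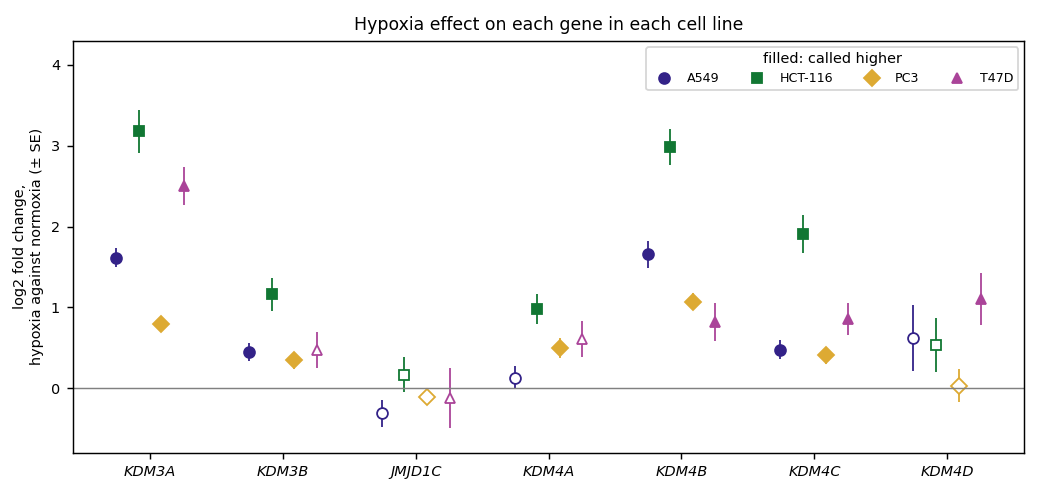
Log2 fold change between hypoxia and normoxia of each gene in each line, from edgeR, with bars of 1 SE; filled symbols were called higher. HCT-116 is the highest of the lines for KDM3A (3.18), KDM3B (1.16), KDM4A (0.98), KDM4B (2.99) and KDM4C (1.91).

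Whether the change in hypoxia differed between the lines was tested as the interaction of line and oxygen in a fit of all 24 libraries. The effect on KDM3A, KDM3B, KDM4B and KDM4C differed between lines, 4 of 7 members, against 18.3% of all genes tested. The adjusted p of the edgeR interaction test was 2.37e-05 for KDM3A, 4.32e-05 for KDM4B, 4.95e-04 for KDM4C and 0.0339 for KDM3B, and 0.0629, 0.267 and 0.699 for KDM4A, KDM4D and JMJD1C. For KDM3B it was 0.0504 when replicate number was added as a block, and it rose above 0.05 when any of 16 of the 24 libraries was left out (0.0514 to 0.139). These were A549 hypoxia replicate 3 and normoxia replicates 1, 2 and 3, HCT-116 hypoxia replicates 1, 2 and 3 and normoxia replicate 2, PC3 hypoxia replicates 1, 2 and 3 and normoxia replicates 1 and 2, and T47D hypoxia replicate 1 and normoxia replicates 1 and 2. For KDM4A it fell below 0.05 without hypoxia or normoxia replicate 3 of T47D (edgeR adjusted p = 0.0461 and 0.0297).

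Between pairs of lines, the rise of KDM4C was larger in HCT-116 than in each of the other lines. The log2 fold changes differed by 1.55 from A549 (SE 0.26), by 1.57 from PC3 (SE 0.26) and by 1.09 from T47D (SE 0.26), with edgeR adjusted p of 7.24e-04, 4.96e-04 and 0.0111. KDM4B also rose more in HCT-116 than in A549 (difference 1.45, SE 0.28), PC3 (1.99, SE 0.28) and T47D (2.21, SE 0.28), with edgeR adjusted p of 0.00282, 1.38e-04 and 6.16e-05. Between the other 3 pairs of lines, no difference passed the test for either gene (smallest edgeR adjusted p of 0.427 for KDM4C and 0.196 for KDM4B).

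The rise of KDM3A was smaller in PC3 than in HCT-116 (difference 2.45, SE 0.29, edgeR adjusted p = 1.89e-05) and than in T47D (1.74, SE 0.29, edgeR adjusted p = 0.00105), and smaller in A549 than in HCT-116 (1.67, SE 0.29, edgeR adjusted p = 0.00110). Of the other pairs, HCT-116 rose by 0.70 more than T47D (SE 0.29) and A549 by 0.78 more than PC3 (SE 0.29), and neither difference passed the test (edgeR adjusted p = 0.119 and 0.298), nor did that between A549 and T47D (0.0882). KDM3B rose more in HCT-116 than in A549 (0.83, SE 0.25, edgeR adjusted p = 0.0251) and PC3 (0.89, SE 0.25, edgeR adjusted p = 0.0194), and the difference of 0.72 from T47D did not pass (SE 0.25, edgeR adjusted p = 0.0636).

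In normoxia each member differed between the lines, as did 93.5% of all genes tested (edgeR, 12 normoxic libraries), so this share says nothing particular of the members. The largest span was that of KDM4B, 12.1-fold from A549 (14.9 CPM ± 1.77, SD, n = 3) to T47D (180 CPM ± 44). T47D exceeded PC3 (difference of 2.14 on the log2 scale, SE 0.20, edgeR adjusted p = 1.24e-07) and PC3 exceeded HCT-116 (1.23, SE 0.20, edgeR adjusted p = 5.66e-05). The difference between HCT-116 and A549 did not pass the test (edgeR adjusted p = 0.375). JMJD1C was 3.10-fold higher in PC3 than in A549, and PC3 stood above HCT-116, the next line (1.25, SE 0.17, edgeR adjusted p = 7.88e-06). The steps from HCT-116 to T47D and from T47D to A549 did not pass the test (edgeR adjusted p = 0.0816 and 0.615).

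KDM3A was ordered from PC3 through A549 and HCT-116 to T47D, over a span of 2.59-fold. The difference between PC3 and A549 did not pass the test (edgeR adjusted p = 0.110), although their libraries did not overlap. The later steps passed it (edgeR adjusted p = 0.00385 and 0.00769). KDM3B was highest in A549, followed by T47D, HCT-116 and PC3, and of the neighbors HCT-116 and PC3 differed (edgeR adjusted p = 0.0435). KDM4C was higher in A549 than in PC3 (0.52, SE 0.17, edgeR adjusted p = 0.0139), and PC3, T47D and HCT-116 followed without a difference between neighbors that passed the test (0.701 and 0.242). KDM4A varied least, over 1.61-fold, with no difference between neighbors that passed the test and an adjusted p of 0.0339 for the lines as a whole in edgeR. KDM4D fell from PC3 through HCT-116 and T47D to A549, 5.64-fold in all, each step passing the test (edgeR adjusted p = 0.0458, 0.0435 and 0.0334).

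Levels were compared between genes per length, as RPKM over the union of annotated exons, with no test. Within the KDM3 genes of a library, KDM3A accounted for 8.75% ± 0.601 (SD, n = 3) of the summed RPKM in normoxic T47D cells and for 30.6% ± 1.61 in hypoxic ones. In HCT-116 cells its share went from 12.3% ± 1.99 to 40.5% ± 6.66, in A549 cells from 15.5% ± 1.62 to 31.4% ± 1.44 and in PC3 cells from 16.2% ± 0.824 to 24.3% ± 1.48. KDM3B was the largest of the 3 by mean RPKM in A549 and T47D cells in both states and in normoxic HCT-116 cells. In hypoxic HCT-116 cells the order of KDM3A and KDM3B depended on the library and on the length used, with KDM3A at 26.2 and KDM3B at 21.4 RPKM in the second library, and group means of 19.9 and 21.6 RPKM by the exon union but 30.3 and 25.3 by the longest transcript. JMJD1C was the largest in PC3 cells, at 56.1% ± 2.54 in normoxia and 45.1% ± 1.66 in hypoxia.

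The summed RPKM of the KDM3 genes went from 17.7 ± 2.94 to 48.3 ± 8.46 in HCT-116, from 22.0 ± 0.937 to 33.1 ± 3.52 in A549, from 25.1 ± 1.66 to 29.4 ± 1.35 in PC3 and from 17.9 ± 0.778 to 29.8 ± 8.89 in T47D cells. The states did not overlap in any line, though in T47D cells the lowest hypoxic library (19.6 RPKM) came near the highest normoxic library (18.8 RPKM). The sum of the KDM4 genes went from 9.60 ± 1.45 to 28.0 ± 4.78 in HCT-116, from 12.6 ± 1.98 to 16.6 ± 1.71 in A549, from 15.9 ± 2.42 to 24 ± 1.10 in PC3 and from 22.3 ± 5.33 to 38.2 ± 5.24 in T47D cells, again without overlap. In A549 cells the lowest hypoxic library (15.0 RPKM) nearly met the highest normoxic library (14.8 RPKM).

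KDM4A was the most abundant KDM4 gene per length in A549, HCT-116 and PC3 cells in both states. Its share was 71.6% ± 2.55 in normoxia and 59.5% ± 1.47 in hypoxia in A549, 67.3% ± 1.46 and 46.4% ± 3.09 in HCT-116, and 65.5% ± 1.96 and 62.4% ± 0.690 in PC3 cells. The share of KDM4B went from 8.03% ± 0.315 to 18.9% ± 2.53 in A549, from 11.8% ± 1.08 to 32.6% ± 0.984 in HCT-116 and from 16.6% ± 0.304 to 23.4% ± 0.533 in PC3 cells. In T47D cells KDM4B was the largest KDM4 gene in both states, at 54.7% ± 3.10 and 57.3% ± 1.01.

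The level of KDM4B per length depends on the length used, since its exon union spans 14719 bases and its longest transcript 5703. By the longest transcript its share in HCT-116 cells was 20.9% in normoxia and 46.7% in hypoxia, above the 29.8% of KDM4A, so that the order of the 2 genes in hypoxia changed with the length. The rise of the KDM4B share in A549, HCT-116 and PC3 cells did not.

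**Figure D3:**
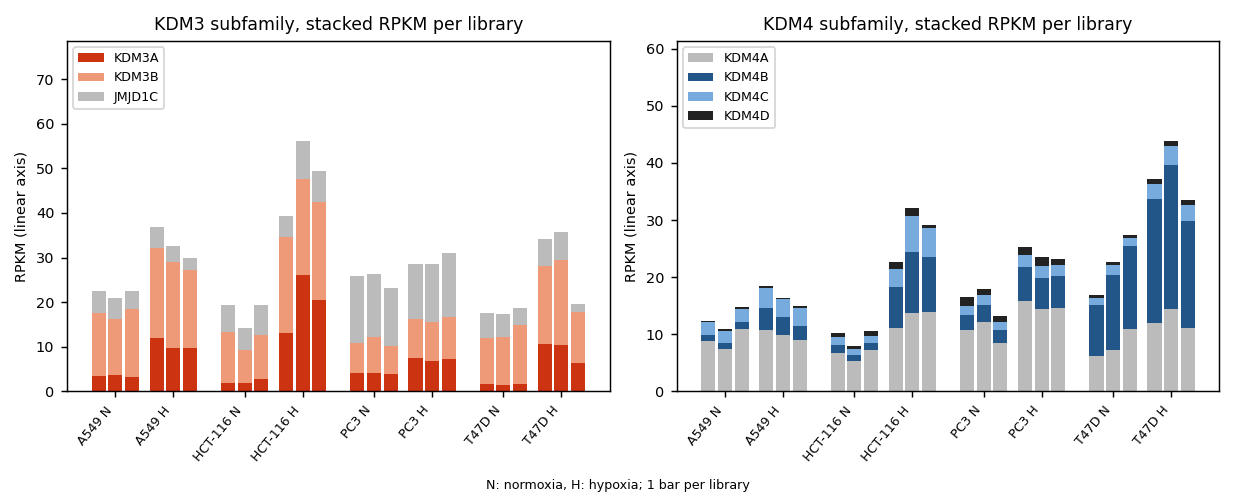
Stacked RPKM of the KDM3 genes (left) and the KDM4 genes (right) in each of the 24 libraries, on linear axes from 0, with N for normoxia and H for hypoxia. KDM3A makes up 8.75% of the KDM3 sum in normoxic and 30.6% in hypoxic T47D cells, and KDM4B the largest part of the KDM4 sum in T47D cells only.

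Ratios of counts within a library do not depend on how libraries are scaled, and they are given with no test. The ratio of KDM3A to KDM3B was 0.217 to 0.266 in the normoxic T47D libraries and 0.915 to 1.002 in the hypoxic ones, a 4.06-fold change of the mean, and the third hypoxic library did not stand apart. The same ratio changed 3.90-fold in HCT-116, 2.24-fold in A549 and 1.35-fold in PC3 cells, without overlap of the states in any line. The ratio of KDM3A to JMJD1C changed 8.03-fold in HCT-116, 6.89-fold in T47D, 3.87-fold in A549 and 1.87-fold in PC3 cells. In hypoxic T47D cells this ratio spanned 1.95 to 4.37, the highest value coming from the third library.

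The ratio of KDM4B to KDM4A changed 4.02-fold in HCT-116, 2.82-fold in A549 and 1.48-fold in PC3 cells, without overlap. In T47D cells it was 3.82 to 5.15 in normoxia and 4.83 to 5.16 in hypoxia, so that the 2 states overlapped. The ratio of KDM4C to KDM4A changed 1.86-fold in HCT-116 and 1.26-fold in A549 cells, and its states overlapped in PC3 and T47D cells.

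Other chromatin enzymes were described from lists of genes by function. The counts for each list stand beside the shares of all genes tested. In A549, HCT-116, PC3 and T47D cells 17.6%, 23.3%, 16.6% and 6.55% of these were called higher, and 17.8%, 27%, 15.7% and 6.69% lower. Of the 7 KDM2, KDM5 and KDM6 enzymes, other Jumonji demethylases of histone lysines, 4 rose in A549, 7 in HCT-116, 6 in PC3 and 1 in T47D cells, and 0 were called lower in any line. Their medians of 0.34, 1.14, 0.45 and 0.42 on the log2 scale lay near those of the 7 KDM3 and KDM4 genes in the first 3 lines. KDM5B, an H3K4 demethylase, rose in all 4 lines, most in HCT-116 cells (log2 fold change 2.04, SE 0.26, edgeR adjusted p = 1.16e-04) and by 0.80, 0.76 and 1.13 in A549, PC3 and T47D cells. The H3K36 demethylases KDM2A (0.79, 1.25 and 0.67) and KDM2B (0.34, 0.86 and 0.39) and the H3K4 demethylase KDM5A (0.32, 0.59 and 0.45) rose in A549, HCT-116 and PC3 cells.

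Of the other H3K9 demethylases, JHDM1D (0.93, 0.83 and 0.60) and HR, a Jumonji protein known as hairless (0.91, 1.16 and 1.25), rose in A549, HCT-116 and PC3 cells. Of the 5 tested, 2, 3, 3 and 0 rose in A549, HCT-116, PC3 and T47D cells and 0 fell, and KDM4E did not pass the filter on low counts.

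The enzymes that write these marks had calls in both directions, as did all genes tested, so the mixture is not particular to them. Of 6 H3K9 methyltransferases, 0, 2, 0 and 0 rose and 0, 2, 2 and 1 fell in A549, HCT-116, PC3 and T47D cells, with medians of -0.18, 0.02, -0.22 and 0.02. EHMT2, counted among them, was at only 0.27 to 1.17 CPM by group mean. The SE of its log2 fold changes was 0.78 to 0.81, so its effect was hardly measured, though it enters these medians. SETDB2 fell by 0.73, 0.70 and 0.86 on the log2 scale in HCT-116, PC3 and T47D cells. SETDB1, which silences repeats and genes through H3K9 trimethylation, rose in HCT-116 cells (log2 fold change 0.45, edgeR adjusted p = 0.0442) and fell in PC3 cells (-0.33, edgeR adjusted p = 0.0226), and its effect differed between lines (edgeR interaction, adjusted p = 0.00325).

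Of the HP1 proteins, which bind methylated H3K9, CBX5 rose in A549, HCT-116 and PC3 cells (0.96, 1.17 and 0.67), and CBX3 fell in the same lines (-0.50, -1.61 and -0.50). Of the 7 H3K36 methyltransferases, 0, 3, 1 and 0 rose and 1, 1, 1 and 0 fell. The gene that fell in each of the first 3 lines was SETMAR (-0.48, -1.56 and -0.61).

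The enzymes that make or use 2-oxoglutarate, succinate and fumarate, the cosubstrate and inhibitors of Jumonji demethylases, also had calls in both directions, like all genes. Of 15, 1, 4, 3 and 0 were called higher and 5, 5, 1 and 1 lower in A549, HCT-116, PC3 and T47D cells. IDH2, a mitochondrial source of 2-oxoglutarate, rose in A549, HCT-116 and PC3 cells (2.19, 1.64 and 0.35). IDH3A, a subunit of the isocitrate dehydrogenase of the citric acid cycle, fell in A549, HCT-116 and T47D cells (-0.52, -0.53 and -0.97). SDHD, a membrane subunit of succinate dehydrogenase, fell in A549, HCT-116 and PC3 cells (-0.50, -1.5 and -0.52).

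**Figure D4:**
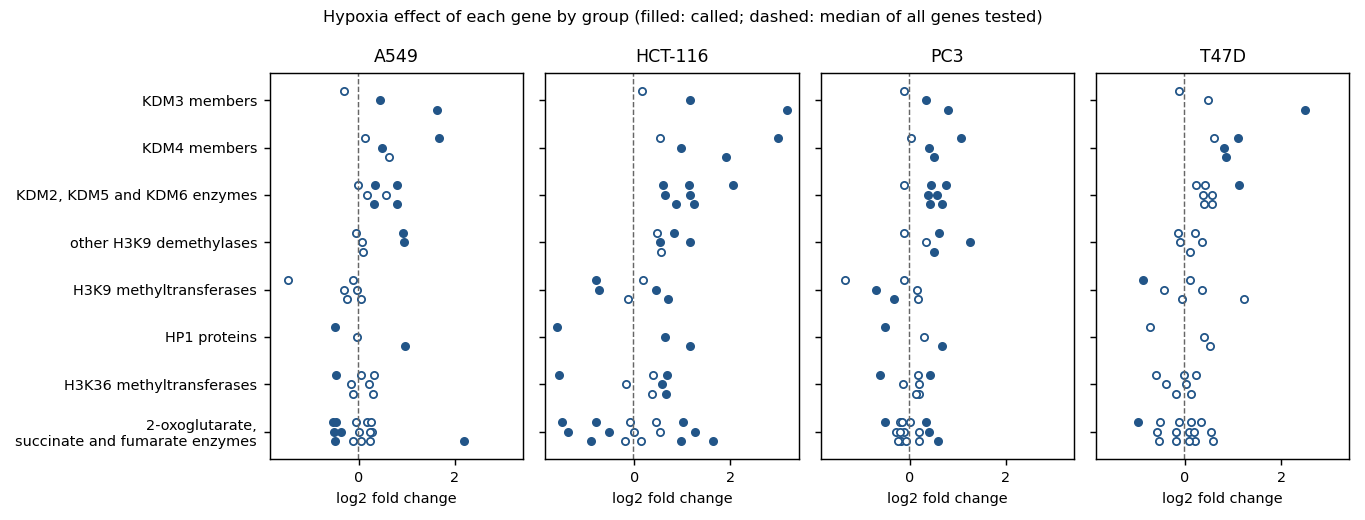
Log2 fold change between hypoxia and normoxia of each tested gene, by functional group and line, with filled dots for called genes and a dashed line at the median of all genes tested. All called KDM2, KDM3, KDM4, KDM5 and KDM6 genes lie to the right of 0. The methyltransferases, the HP1 proteins and the enzymes of 2-oxoglutarate metabolism have called genes on both sides, as all genes tested do.

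Genes with the pattern most like a member were sought among the 13293 genes whose mean count was at least 50, by the root mean square difference of log2 CPM over the 24 libraries after centring each gene on its own mean. The nearest to KDM3A were GYS1 (0.51), which encodes glycogen synthase, P4HA2 (0.51), a collagen prolyl hydroxylase, and INSIG2 (0.53), a regulator of sterol synthesis, set against 1.16 for the spread of KDM3A about its own mean. All 3 rose in each line, by 1.42, 2.34, 0.61 and 2.04 for GYS1, by 1.28, 1.74, 0.88 and 2.87 for P4HA2 and by 1.09, 2.22, 0.86 and 1.48 for INSIG2 in A549, HCT-116, PC3 and T47D cells. The nearest to KDM4B were the corepressor TLE3 (0.53), ARHGEF37 (0.55) and PPP1R13L (0.61), against its own spread of 1.51. TLE3 and ARHGEF37 rose in all 4 lines and PPP1R13L in 3, its log2 fold change of 0.60 in T47D cells missing the threshold (edgeR adjusted p = 0.0573).

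The nearest to KDM4C were MESDC1 (0.24), TBC1D22A (0.26) and BCKDK (0.27), against a spread of 0.62. TBC1D22A and BCKDK rose in all 4 lines, and MESDC1 was called in HCT-116 cells (log2 fold change 1.61, edgeR adjusted p = 1.31e-04). The nearest to KDM3B were TULP3 (0.17), KIAA0430 (0.17) and SIN3A (0.18), a scaffold of a histone deacetylase complex, against a spread of 0.56. By the 8 group means, 1 of its 3 genes remained among the nearest 3.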

How the data were processed

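Counts were analyzed for 24 RNA-seq libraries of polyadenylated RNA, grouped by cell line and oxygen from the sample labels. The authors trimmed reads with Trim Galore 0.3.3, aligned them to GRCh37 (hg19) with HISAT2 2.05, removed fragments without a unique position with Picard 2.0.1 and counted with HTSeq 0.5.4p3 (intersection-strict). The deposited values are raw counts per symbol, without normalization. The kit was directional, and the strand setting of the counting is not given in the sources used here. Removing fragments that map to several places can lower counts of genes with near-identical copies.

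Computed here, fold changes came from edgeR 4.0.16 in R 4.3.3 (filterByExpr, TMM, quasi-likelihood test), in a fit for each line, of all 24 libraries for the interaction and of the 12 normoxic libraries for differences between lines, with Benjamini-Hochberg adjustment over all genes tested. SE is the log2 fold change divided by the square root of F. CPM are counts scaled by TMM, with a prior count of 2 on the log2 scale, and RPKM use GENCODE 44 exons on GRCh37. The authors counted over UCSC gene models, so these exon lengths may differ from those behind the counts. Totals, 22698584 to 62850747 counts, set the precision, and the floor of 3 counts covers counting error only. The scripts were tested on simulated data. Alternatives were DESeq2 1.42.0, other scalings, filters, thresholds and lengths, the replicate block, each library left out and, chosen after seeing the data, a correction for GC content and length over the 20098 symbols (86.98%) with a transcript.

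Replicate numbers 1 to 3 come from the labels. Deviations from the group mean correlated above 0.1 for each same-numbered pair in PC3 (0.158, 0.126 and 0.118) and T47D (0.226, 0.326 and 0.304), but not for each pair in A549 (lowest 0.0505) or HCT-116 (lowest 0.0890). The highest pair reached 0.253 in A549 and 0.344 in HCT-116, above every pair of PC3. Pairs of unlike number were not compared, so this check does not settle which lines are paired.

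The members and gene lists were chosen with earlier results of these data known. Named genes are the 7 members, list genes called in the same direction in 3 or 4 lines or in opposite directions in 2 lines, the check genes, and the 3 genes of most like pattern for members called in 3 or more lines. EHMT2 and KDM4E are named besides for their low counts.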

Additional observations from a re-analysis of the deposited data

Results flagged for a closer look

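The effect of hypoxia differed between the 4 lines for 4 members, by the interaction of line and oxygen in edgeR over the 24 libraries. The adjusted p was 2.37e-05 for KDM3A, whose log2 fold changes in that fit ran from 0.84 in PC3 to 3.29 in HCT-116 cells, and 4.32e-05 for KDM4B, which ran from 0.90 in T47D to 3.11 in HCT-116. It was 4.95e-04 for KDM4C, which ran from 0.46 in PC3 to 2.03 in HCT-116, and 0.0339 for KDM3B, which ran from 0.39 in PC3 to 1.28 in HCT-116.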

How the results depend on the processing

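A member's effect in a line had 475 alternatives, which were refits or the main fit read at a stricter threshold. Of these, 414 kept the direction and the side of the threshold and 46 kept the direction but lost the call. Another 7 gained a call and 8 changed sign, all 8 for values that were not called. Of the lost calls, 5 came from a fold change over 1.5 and 7 from an adjusted p under 0.01, without a refit. DESeq2, RLE size factors, both other filters on low counts and the replicate block changed no call of a member's effect in a line. The cause of the changes below was not tested. The sign of KDM4D in PC3 cells changed with total count scaling (-0.0093). With 1 library left out, the log2 fold change of KDM4D in PC3 cells ranged from -0.069 to 0.18, below 0 without hypoxia replicate 1 or 2 or normoxia replicate 2 or 3. That of JMJD1C ranged from -0.010 to 0.41 in HCT-116 cells, below 0 without hypoxia replicate 2, and from -0.41 to 0.28 in T47D cells, above 0 without hypoxia replicate 3 or normoxia replicate 1.

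Members called higher fell to 2 in A549 and 2 in PC3 cells in one fit of all 24 libraries and with a fold change over 1.5, to 2 in PC3 and 1 in T47D cells at an adjusted p under 0.01, and to 2 in T47D cells with total count scaling. With 1 library left out they ranged from 3 to 4 in A549, 2 to 5 in PC3 and 1 to 6 in T47D cells, and members called lower from 0 to 1 in A549 cells, where GC correction with the replicate block also gave 1.

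Genes called higher and lower in one fit of all 24 libraries were 1427 and 1182 in A549, 867 and 425 in PC3 and 2231 and 1599 in T47D cells. With a fold change over 1.5 they were 1398 and 1144 in A549 and 1019 and 892 in PC3 cells. At an adjusted p under 0.01 they were 1438 and 1296 in A549, 977 and 572 in PC3 and 308 and 108 in T47D cells, and 2002 were higher in HCT-116. With 1 library left out, genes called higher ranged from 1642 to 2702 in A549, 1308 to 2629 in PC3 and 180 to 1549 in T47D cells, and genes called lower from 1467 to 2629, 875 to 2732 and 19 to 1756. In T47D cells, genes called lower numbered 1485 with the replicate block, and 1502 higher and 1653 lower with the block and GC correction. Which lines are paired was not settled by the correlation check, and the block changed no call of a member's effect in any line.

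The interaction test called 847 genes at an adjusted p under 0.01, 4423 in DESeq2 and 165 to 2478 with 1 replicate of every group left out, when 2 to 4 members were called. Total count scaling and no filter gave KDM3B an adjusted p of 0.0682 and 0.0583 in that test. KDM4C kept its call in the interaction except without replicate 2 of every group (0.155), and KDM4A lost its normoxic difference without replicate 1 or 2 of every line (0.177 and 0.257). KDM4D had the fewest counts of the members, 19 to 222 a library, and the part of depth in its calls was not tested.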
